A study of Mus musculus with 108 samples.

Results

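The genes described here make and load MHC class II molecules, the surface proteins on which antigen-presenting cells show peptides from engulfed material to CD4+ T cells. They are the 10 rows of the count table with the symbols H2-Aa, H2-Ab1, H2-Eb1, Cd74, Ciita, H2-DMa, H2-DMb1, H2-DMb2, H2-Oa and H2-Ob, out of 49585 genes, and they were chosen by name. Their RNA was followed in 108 libraries of myeloid cells purified by flow cytometry from brains with lung-to-brain metastases, from tumour-free brains and from blood. All mice were Balb/C athymic nude mice of the line CAnN.Cg-Foxn1nu/Crl, which lacks a working thymus, so the T cells to which class II molecules present are largely missing in all groups. No label gives an age.

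From tumour-bearing brains came microglia (the macrophages resident in the brain), the cells labelled BMDM (bone marrow-derived macrophages, which enter from the blood), inflammatory monocytes and granulocytes. Without radiotherapy, microglia and BMDM had 5 libraries at the small tumour stage and 5 at the large stage, and monocytes and granulocytes had 4 and 5. After whole-brain radiotherapy, each population had 4 libraries at 5x2 Gy day 3, 3 at 1x10 Gy day 3, 4 at 5x2 Gy day 5 and 3 at 5x2 Gy day 10. The labels give irradiated groups no stage and do not say from when the days are counted. Controls were 4 libraries of tumour-free microglia, 4 of blood monocytes, and 3 and 3 of tumour-free microglia whose titles carry 5x2 with day 3 or day 5 while the radiotherapy field says none. Whether the libraries of a group stem from separate mice is not stated, and p-values therefore reflect only the spread among these libraries, which may be technical.

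A class II molecule is a pair of an alpha chain and a beta chain, of which mice use the pairs A (H2-Aa with H2-Ab1) and E (H2-Ea with H2-Eb1). Cd74 encodes the invariant chain, which holds the groove closed until the pair reaches the endosome. There H2-DM (H2-DMa with H2-DMb1 or H2-DMb2) swaps the last piece of the invariant chain for a peptide, and H2-DO (H2-Oa with H2-Ob), best known from B cells and some dendritic cells, restrains H2-DM. Ciita encodes the coactivator that switches these genes on. Interferon gamma induces it in macrophages, while dendritic cells and B cells express it constitutively. In the healthy brain, microglia carry little class II and dendritic cells are rare outside the meninges and choroid plexus.

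Of the members, 8 lie in the class II region of chromosome 17 (GRCm38), from H2-Oa (34092340 to 34095234) and H2-DMa (34119541 to 34139101) through H2-DMb2 (34143307 to 34151555), H2-DMb1 (34153072 to 34160230), H2-Ob (34238903 to 34254414) and H2-Ab1 (34257689 to 34269419) to H2-Aa (34282744 to 34287823) and H2-Eb1 (34305867 to 34316674). Ciita is on chromosome 16 (10480059 to 10528418). All 10 are annotated as protein-coding.

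Promoters of class II genes are known for an X box and a Y box at a nearly fixed distance, the docking site of RFX, CREB and NF-Y factors and, through them, of CIITA. The core letters GCAAC (X box) and ATTGG (Y box, the CCAAT motif read on the other strand) were searched on both strands in RefSeq promoters of 300 bases (GRCm38.p6), which were found for 7 of the 10 members. In 4 of the 7 (H2-Aa, H2-Eb1, H2-Oa and H2-Ob), GCAAC was followed by ATTGG within 25 to 40 bases on the gene's strand. Counted on either strand, 0.794% of all 32851 promoters hold such a pair, 35.2% hold GCAAC and 37.4% hold ATTGG. The 2 motifs do not overlap. The stretch around the pair is shown for these genes, 5′ to 3′ on the gene's strand with both motifs in capitals, and for H2-DMb1 and H2-DMb2 the stretch around ATTGG, because these neighbouring genes are told apart below by their counts. The sequences are those of the reference and not of the Balb/C mice.
H2-Aa, chr17:34287842-34287929, minus strand: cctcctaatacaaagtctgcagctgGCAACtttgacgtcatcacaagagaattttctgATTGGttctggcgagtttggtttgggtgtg
H2-Eb1, chr17:34305751-34305837, plus strand: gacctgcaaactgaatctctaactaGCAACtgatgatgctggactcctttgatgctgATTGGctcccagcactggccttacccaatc
H2-Oa, chr17:34092278-34092365, plus strand: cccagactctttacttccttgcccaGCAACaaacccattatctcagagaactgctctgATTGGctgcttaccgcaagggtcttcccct
H2-Ob, chr17:34238793-34238877, plus strand: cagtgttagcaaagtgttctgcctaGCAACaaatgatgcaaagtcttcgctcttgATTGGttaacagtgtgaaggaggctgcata
H2-DMb1, chr17:34153072-34153159, plus strand: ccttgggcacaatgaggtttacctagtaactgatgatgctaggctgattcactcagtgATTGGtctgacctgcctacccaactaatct
H2-DMb2, chr17:34145101-34145188, plus strand: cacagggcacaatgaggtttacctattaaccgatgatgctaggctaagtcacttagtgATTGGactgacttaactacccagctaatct
ATTGG followed GCAAC by 33 bases in H2-Aa and H2-Oa, by 32 in H2-Eb1 and by 30 in H2-Ob, counted from start to start. A match is a description of the letters and not a measured binding site.

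Raw counts per library summed to 985423 to 18642747, with a median of 11362593. By criteria set after the counts were seen, 12 libraries were of doubtful quality (a total under 3000000, more than 30000 detected genes, or more than 1% of abundant genes at 0), among them 3 of 4 blood monocyte and 2 of 4 tumour-free microglia libraries. Summed markers of microglia (8 genes such as P2ry12 and Tmem119) were at 5149 to 13200 CPM (counts scaled to a common library size by TMM over all libraries, called CPM throughout) in small-stage and 6936 to 11860 CPM in large-stage microglia, against 1055 to 5786 CPM in unirradiated BMDM, with overlap only through 1 large-stage BMDM library. BMDM also held markers of conventional dendritic cells. Their 11 genes summed to 1974 to 3810 CPM in small-stage and 454.6 to 2764 CPM in large-stage BMDM, against 50.95 to 302.1 CPM in unirradiated tumour-bearing microglia and 79.78 to 357.5 CPM in tumour monocytes. In bulk libraries, fewer cells of a type and less RNA per cell cannot be told apart.

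The members themselves set some libraries apart. Leaving aside granulocytes, whose counts were too low to class, the ratio of H2-DMb1 to H2-DMb2 counts was 0.397 to 1.31 in 25 of 85 libraries and 0.0336 to 0.257 in the other 60, with none between. In BMDM it was 0.589 to 0.94 in 6 libraries and 0.115 to 0.233 in 18. The same libraries differed in the ratio of H2-Ab1 to H2-Aa, with 1.26 to 2.05 in those 6 BMDM libraries and 0.557 to 0.891 in the other 18, and with 1.36 to 2.19 in 6 monocyte libraries and 0.557 to 0.96 in 17. In microglia that ratio overlapped (1.15 to 4.17 in 11 libraries, 0.773 to 1.97 in 23), while H2-Ob was at 28.6 to 82.8 CPM in the 11 and at 8.64 to 36.3 CPM in the 23.

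**Figure D1:**
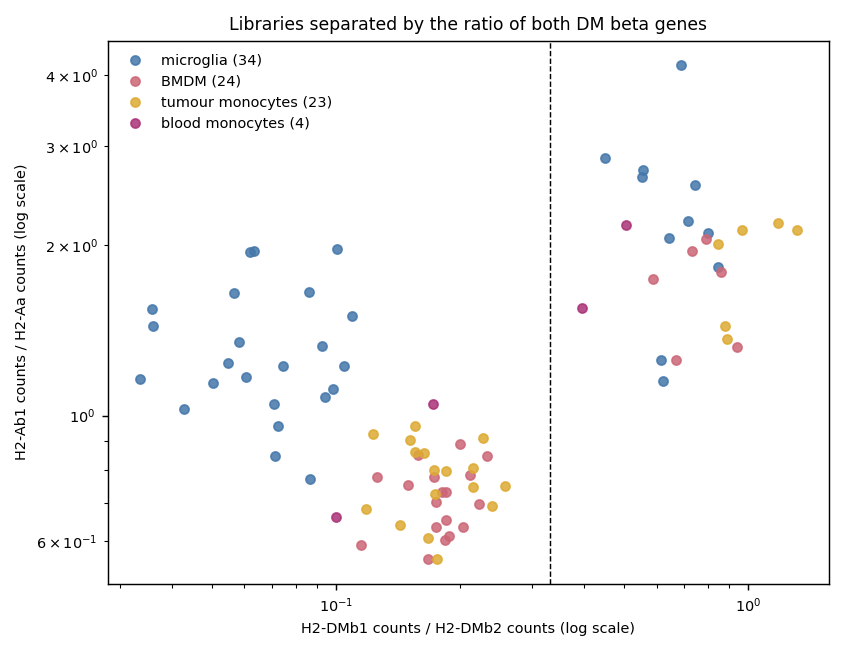
Ratio of H2-DMb1 to H2-DMb2 counts (x axis, log scale) against the ratio of H2-Ab1 to H2-Aa counts (y axis, log scale) in the 85 libraries other than granulocytes, 1 point per library, coloured by population. The dashed line at 0.33 separates the 25 libraries of high H2-DMb1 ratio from the other 60.

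The high-ratio libraries were replicates 1 and 2 of the large stage in BMDM and monocytes and 1 and 4 in microglia, and in all 3 populations replicates 1 and 4 of 5x2 Gy day 3, 2 of 1x10 Gy day 3 and 4 of 5x2 Gy day 5. Among controls they were tumour-free microglia 1, 2 and 3, titled 5x2 day 3 microglia 1 and 2, and blood monocytes 2 and 3. There were none at the small stage or at 5x2 Gy day 10. The labels give no batch that matches, and each comparison below was also made without these 25 libraries. H2-DMb1 and H2-DMb2 share 22.7% of the 50-base words of the H2-DMb1 transcript models (21.2% of those of H2-DMb2), so reads could in part be assigned to either, and no alignment setting is given in the sources used here.

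Levels of different genes are compared per kilobase of exon, and with a further limit. The mice carry the Balb/C haplotype of these polymorphic genes, while the build named in the processing notes is that of C57BL/6, and any loss of reads at differing sites was not tested. In unirradiated BMDM (mean ± SD, n = 10), Cd74 was at 2798 ± 806 CPM per kb and H2-Eb1 at 739 ± 187 CPM per kb, whereas H2-Aa was at 34.1 ± 19.9 and H2-Ab1 at 56.9 ± 65.7 CPM per kb. Without the 2 libraries of high H2-DMb1 ratio these chains were at 25.4 ± 8.22 and 26.1 ± 7.78 CPM per kb (n = 8). H2-Ea-ps, the gene of the E alpha chain, which the annotation lists as a polymorphic pseudogene, was at 2209 ± 803 CPM per kb. H2-DMa was at 125 ± 34.8 CPM per kb, H2-DMb2 at 61.0 ± 20.0, H2-Oa at 40.2 ± 14.7, H2-Ob at 13.2 ± 5.76 and Ciita at 17.5 ± 6.95 CPM per kb.

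**Figure D2:**
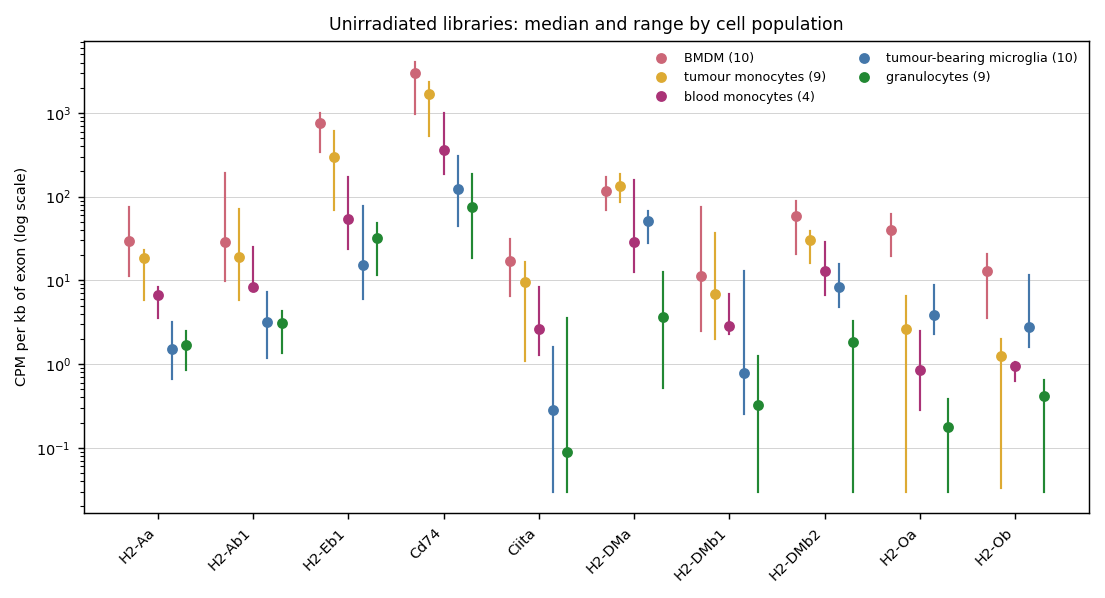
Level of each member per kilobase of exon (y axis, CPM per kb, log scale) in unirradiated libraries of 5 populations, with the number of libraries in brackets. Dots are medians and lines run from the lowest to the highest library, with lower ends under 0.03 drawn at 0.03. Cd74 stood highest per kb in BMDM, tumour monocytes, blood monocytes, microglia and granulocytes.

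Cd74, the most abundant member, was highest in BMDM and lowest in tumour-free microglia and granulocytes. Its group means were 3500 to 5313 CPM in the 6 BMDM groups, 2280 to 4056 CPM in the 6 tumour monocyte groups, 803.9 CPM in blood monocytes, 219.6 to 494.7 CPM in the 6 groups of tumour-bearing microglia, 71.2 to 73.95 CPM in the 3 groups of tumour-free microglia and 72.4 to 402.6 CPM in granulocytes. In the order of the 28 group means, neighbouring groups overlapped in their libraries at every step but that from monocytes of 5x2 Gy day 10 (3058 ± 266 CPM, n = 3) to large-stage monocytes (2280 ± 794 CPM, n = 5).

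H2-DMa, the alpha chain of the peptide editor, spread far less between macrophage populations. It was at 353.8 ± 68.1 CPM (n = 5) in large-stage and 505.9 ± 115 CPM (n = 5) in small-stage BMDM, 490.8 ± 117 CPM (n = 4) in small-stage monocytes, 185.4 ± 51.6 CPM (n = 5) in small-stage microglia and 138.8 ± 95.1 CPM (n = 4) in tumour-free microglia. The step from the last of these to granulocytes, whose group means were 2.98 to 24.5 CPM, was the only one among neighbours in its order without overlap.

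The H2-DO genes followed another order. H2-Oa had group means of 23.98 to 63.01 CPM in the 6 BMDM groups and 2.97 to 7.07 CPM in the 9 microglia groups. It had 1.37 to 5.22 CPM in the 6 tumour monocyte groups and 1.57 CPM in blood monocytes. H2-Ob had 27.6 to 77.6 CPM in BMDM, 12.07 to 47.8 CPM in microglia and 1.95 to 6.86 CPM in tumour monocytes. Tumour monocytes thus carried Cd74 at 2280 to 4056 CPM while their H2-Oa and H2-Ob lay within or below the range of the microglia groups.

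**Figure D3:**
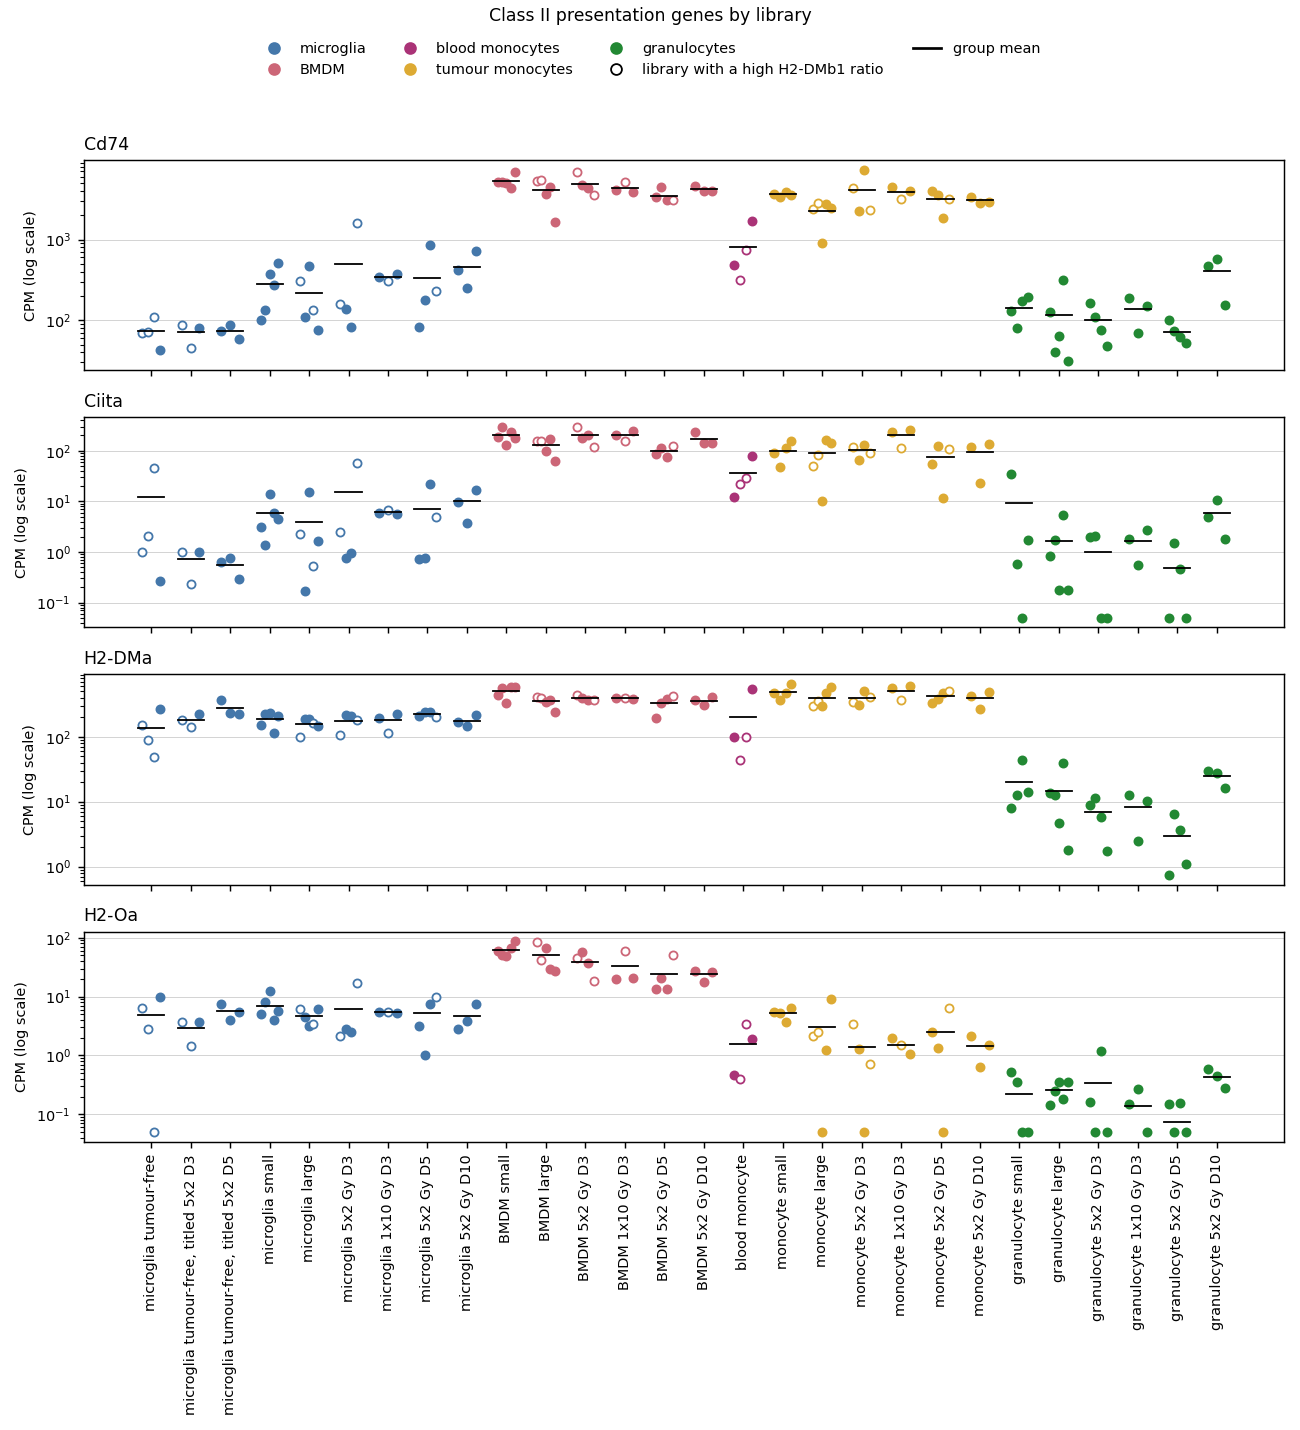
CPM (y axes, log scale) of Cd74, Ciita, H2-DMa and H2-Oa in each of the 108 libraries by group (x axis), with 1 point per library, open points for libraries of high H2-DMb1 ratio, lines for group means and values under 0.05 drawn at 0.05. H2-Oa separates BMDM from tumour monocytes, while Cd74 and H2-DMa are high in both.

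How the cells labelled BMDM differ from microglia of tumour-bearing brains was read from the unirradiated libraries, 10 of BMDM against 10 of microglia. All 10 members were called higher in BMDM, where 29.9% of the 15103 genes tested were called in either direction (called means an adjusted p under 0.05 in the quasi-likelihood test of edgeR). The median log2 fold change was 3.66 over the members and -0.04 over all genes tested. H2-Eb1 ran from 670 to 1935 CPM in BMDM (median 1465) and from 11.5 to 150 CPM in microglia (median 29.5). Cd74 ran from 1631 to 6789 CPM (median 5081) against 75.2 to 509.5 CPM (median 205). No BMDM library reached down to a microglia library for these genes, nor for 6 of the others, and only H2-DMb1 and H2-Ob overlapped. No share of all genes without overlap is given here or below, so such counts describe the members alone.

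The chains of both pairs were higher. H2-Aa differed by 4.27 ± 0.40 (log2 fold change ± SE, edgeR adjusted p = 1.5e-07) and H2-Ab1 by 3.93 ± 0.48 (3.2e-06), and H2-Ea-ps by 5.22 ± 0.44 (5.2e-08). Ciita, the coactivator, differed by 5.08 ± 0.58 (adjusted p = 1.4e-06), from 0.169 to 15.4 CPM in microglia to 62.1 to 295 CPM in BMDM. Among the editing genes the differences were 1.32 ± 0.15 for H2-DMa (1.9e-06), 3.40 ± 0.70 for H2-DMb1 (0.00098), 2.72 ± 0.25 for H2-DMb2 (1.2e-07), 3.28 ± 0.24 for H2-Oa (1.4e-08) and 1.61 ± 0.37 for H2-Ob (0.0026). H2-DMa was at 241 to 594 CPM in BMDM and 97.7 to 235 CPM in microglia, so microglia already carried it at a substantial level.

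All 10 calls were kept without any single library, without the doubtful libraries and without those of high H2-DMb1 ratio. Over all tumour-bearing groups, 24 libraries against 24, only Cd74, H2-Eb1 and Ciita were without overlap. Of the 10 tested dendritic cell markers 9 were higher in BMDM, and so were all 6 tested border macrophage markers. Markers listed for monocyte-derived macrophages summed to 632.8 to 2637 CPM in unirradiated BMDM and 28.16 to 307.0 CPM in unirradiated tumour-bearing microglia. B cell markers summed to 255.5 to 444.5 CPM in unirradiated BMDM and 225.9 to 635.7 CPM in unirradiated tumour-bearing microglia, without the former standing higher. The part of any of these cell types in the result was not tested.

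**Figure D4:**
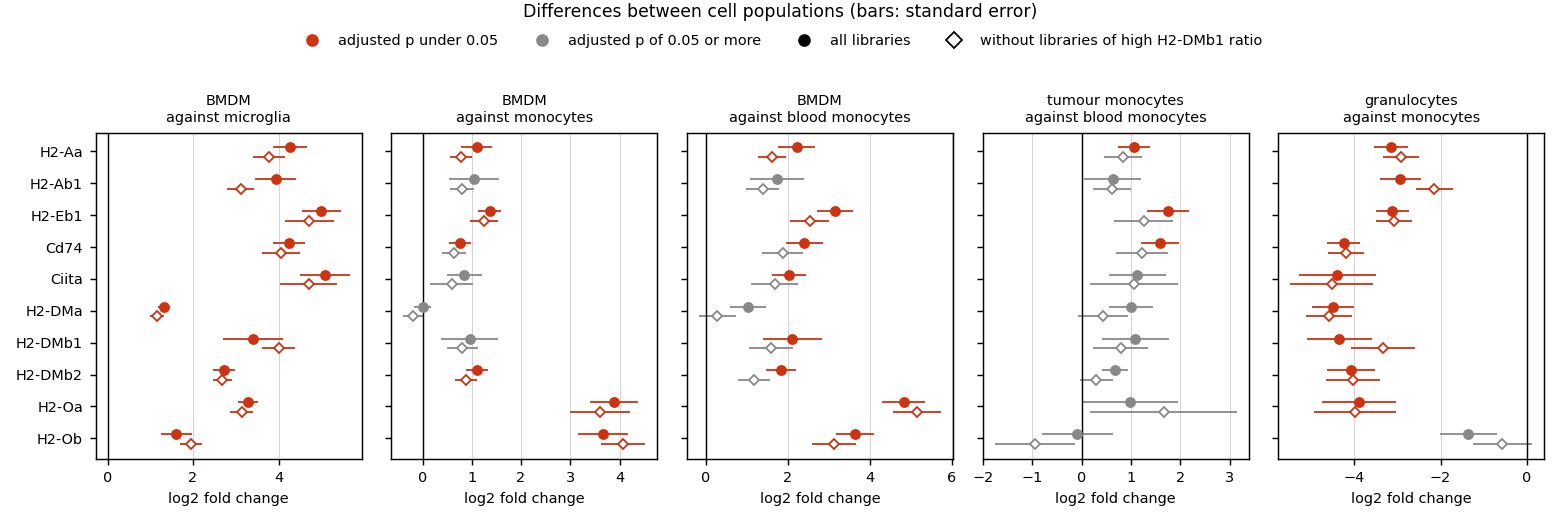
Log2 fold change (x axes) of the 10 members (rows) in 5 comparisons between populations, from all unirradiated libraries (circles) and without libraries of high H2-DMb1 ratio (open diamonds). Bars are standard errors and red marks an adjusted p under 0.05. All 10 members are red in BMDM against microglia in both fits, while tumour against blood monocytes has 3 and 0.

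BMDM were also compared with inflammatory monocytes of unirradiated tumour-bearing brains, a contrast of sorted populations that does not order them in time. Here 6 of the 10 members were called higher in BMDM and none lower, with 13.8% of 14939 genes called. H2-Oa was at 27.5 to 87.7 CPM (median 56.1, n = 10) in BMDM and 0 to 9.04 CPM (median 3.67, n = 9) in monocytes, a difference of 3.88 ± 0.49 (edgeR adjusted p = 4e-05). H2-Ob was at 19.2 to 111 CPM (median 70) against 0.18 to 10.7 CPM (median 6.76), a difference of 3.66 ± 0.51 (8.9e-05). These 2 genes of H2-DO were the only members without overlap.

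The other 4 calls were smaller, with 1.36 ± 0.23 for H2-Eb1 (edgeR adjusted p = 0.00056), 1.10 ± 0.22 for H2-DMb2 (0.0023), 1.10 ± 0.32 for H2-Aa (0.026) and 0.76 ± 0.22 for Cd74 (0.025). H2-DMa was at 241 to 594 CPM against 296 to 650 CPM and differed by -0.00 ± 0.17 (adjusted p = 0.99). Ciita was not called (0.85 ± 0.36, adjusted p = 0.12). H2-Aa and Cd74 lost their calls without the doubtful libraries, and Cd74 also without those of high ratio, whereas H2-Oa (3.60 ± 0.61) and H2-Ob (4.07 ± 0.45) kept theirs. Leaving out single libraries gave 4 to 6 calls, with H2-Aa, Cd74 or both lost in 6 of these fits (without small-stage monocytes 1, 2, 3 or 4 or large-stage BMDM 1 or 2). Beside these differences, all 10 tested dendritic cell markers and 3 of 6 tested B cell markers were higher in BMDM. Their part was not tested.

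Against blood monocytes of tumour-free mice, BMDM had 8 of 10 members called higher, with 32.8% of 19778 genes called. H2-Oa was at 0.475, 0.401, 3.48 and 1.94 CPM in the 4 blood libraries and H2-Ob at 5.69, 3.41, 4.74 and 5.48 CPM, all below every unirradiated BMDM library. The differences were 4.83 ± 0.53 for H2-Oa and 3.64 ± 0.46 for H2-Ob (edgeR adjusted p = 4.3e-05 and 0.00012). H2-Aa and H2-Eb1 also did not overlap, while H2-Ab1 (1.74 ± 0.66, adjusted p = 0.051) and H2-DMa (1.02 ± 0.44, 0.085) were not called. Without blood replicate 4 all 10 were called, with H2-DMa at 2.28 ± 0.33 (adjusted p = 0.00019), and leaving out other single libraries gave 7 to 9. Without the doubtful libraries, which left blood replicate 4 alone, assumed to vary like the other groups, 2 calls were kept, and 4 were kept without the high-ratio libraries (H2-Aa, H2-Eb1, H2-Oa and H2-Ob).

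Tumour monocytes differed from blood monocytes in fewer members. Called higher were Cd74 (1.59 ± 0.38, edgeR adjusted p = 0.0078), H2-Eb1 (1.75 ± 0.43, 0.0094) and H2-Aa (1.06 ± 0.32, 0.026), 3 of 10 members, with 26.3% of 15714 genes called. Cd74 was at 487, 316, 737 and 1676 CPM in the 4 blood libraries and at 900 to 3936 CPM (median 2827) in the 9 tumour libraries. Blood replicate 4 stood above the other 3 for Cd74 and, with 551 CPM, for H2-DMa (43.9 to 101 CPM in the others), and no member was free of overlap.

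The comparison rests on few blood libraries. None of the members was called without the doubtful libraries or without those of high ratio, where Cd74 differed by 1.22 ± 0.53 (edgeR adjusted p = 0.32), and 6 were called without blood replicate 4. The blood libraries held markers of T and NK cells summing to 125.7 to 2446 CPM, against 0 to 27.8 CPM in unirradiated tumour monocytes, and markers of B cells, which express class II, summing to 188.6 to 979.5 CPM against 30.9 to 395 CPM. Their part in the members' levels was not tested.

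Granulocytes, which are not regarded as class II-presenting cells, were lower than monocytes in 9 of 10 members, with 49.9% of 14270 genes called. Both were from unirradiated tumour-bearing brains. Cd74 was at 31.5 to 317 CPM (median 126, n = 9) against 900 to 3936 CPM in monocytes and differed by -4.24 ± 0.39 (edgeR adjusted p = 1.9e-08). H2-DMa was at 1.77 to 44 CPM against 296 to 650 CPM and differed by -4.48 ± 0.49 (2.3e-07). H2-Ob, low in both, was not called (-1.36 ± 0.66, 0.09). There was no overlap for 7 members.

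Whether microglia raise class II genes once metastases are present was read from 5 small-stage and 5 large-stage libraries against 4 tumour-free ones. Cd74 was at 100, 135, 370, 275.5 and 509.5 CPM at the small stage and 305, 108, 476, 134 and 75.2 CPM at the large stage, against 70.1, 72.4, 110 and 43.3 CPM in tumour-free microglia. The libraries of each tumour stage spread widely and overlapped the controls only through tumour-free replicate 3 (110 CPM), a library of doubtful quality. Neither difference was called (1.83 ± 0.71, edgeR adjusted p = 0.077, and 1.37 ± 0.70, 0.13). Without that replicate they were 2.12 ± 0.80 and 1.67 ± 0.78, also not called (edgeR adjusted p = 0.085 and 0.12).

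At the small stage 1 of 10 members was called, H2-DMb1, lower by 3.74 on the log2 scale (SE 1.24, edgeR adjusted p = 0.039), with 15.4% of 19754 genes called (7.55% higher and 7.82% lower). Of the tumour-free libraries, 3 of 4 were of high H2-DMb1 ratio and of the small-stage libraries 0 of 5, and leaving these out would leave 1 tumour-free library and select on the gene itself, so the call cannot be told apart from that class of libraries. At the large stage 0 of 10 were called, with 31.9% of genes called (11.7% higher and 20.2% lower) and 0 members at an unadjusted p under 0.05 (8753 of 19754 genes), while DESeq2 called 1. Ciita was at 0.996, 2.03, 45.8 and 0.266 CPM in the 4 tumour-free libraries, the third of which had the fewest counts of all 108, and its small-stage difference changed from -1.12 ± 1.26 to 2.37 ± 1.36 without it. Neither group of tumour-free microglia titled 5x2 had a member called (1.91% of genes called at day 3, 0.825% higher and 1.09% lower, and 1.35% at day 5, 0.795% higher and 0.552% lower), with 1 and 4 members at an unadjusted p under 0.05 (5029 and 4638 genes) and 1 and 4 called by DESeq2. The shares are those of edgeR. No share of all genes called by DESeq2 is given here or below, so its counts describe the members alone.

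Some other genes of the pathway differed in microglia of tumour-bearing brains. Of 8 antigen-processing genes, 6 were higher at both stages and 1, Cst3, an inhibitor of cysteine proteases, was lower. The lysosomal protease Ctsb differed by 1.84 ± 0.15 at the small and 2.03 ± 0.15 at the large stage (edgeR adjusted p = 3e-09 and 5.4e-10), and Ctsl, a protease able to cut the invariant chain, by 1.81 ± 0.24 and 1.76 ± 0.24. Of 7 genes of surface turnover and costimulation, 4 and 5 were higher, with Cd83 at 3.03 ± 0.46 and 3.20 ± 0.46 and the costimulatory receptor Cd40 at 5.93 ± 0.94 and 4.80 ± 0.91. The list also holds genes that act the other way and were higher at both stages, the inhibitory ligand Cd274 (1.63 ± 0.34 and 1.33 ± 0.34) and March8, a ligase that removes class II from the surface (0.90 ± 0.26 and 1.08 ± 0.27). Of 12 genes that regulate the locus, 2 and 4 were higher, among them Irf1 (1.32 ± 0.33 and 1.22 ± 0.33), a factor induced by interferons. Of 5 genes of the interferon gamma receptor, its kinases and its inhibitor Socs1, 3 were higher at both stages, the receptor chain Ifngr2 (0.53 ± 0.15 and 0.70 ± 0.15) and the kinases Jak1 (0.48 ± 0.16 and 0.43 ± 0.16) and Jak2 (1.58 ± 0.33 and 1.77 ± 0.33). The share of all genes called was 15.4% and 31.9%, as above, with 7.55% and 11.7% of all genes higher. Calls among the regulators were few and are not read as a change of that group. Lower calls are not counted here for the regulators, the turnover and costimulation genes or the interferon gamma genes. Of all genes, 7.82% were called lower at the small and 20.2% at the large stage.

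Between unirradiated BMDM and microglia these lists held calls in both directions. Of all genes tested there, 29.9% were called, 16.1% higher and 13.8% lower. Antigen-processing genes were mostly lower in BMDM, 5 of 8 against 1 higher, with Ctsl at -1.08 ± 0.24 and Lgmn at -0.79 ± 0.21, and Ifi30, a thiol reductase of the endosome, at 1.25 ± 0.35. Regulators of the locus were called no more often than all genes, with 9 of 12 not called. Irf4, a factor of dendritic cells and alternatively activated macrophages, was higher by 1.86 ± 0.36 (edgeR adjusted p = 0.00057). Nfyc was higher by 0.37 ± 0.13 and Nfya was lower. Of the turnover and costimulation genes, Cd40 (2.98 ± 0.42), Cd80 (2.06 ± 0.37) and Cd274 (1.41 ± 0.29) were higher and March8 was lower (-0.93 ± 0.24).

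No member was called between the tumour stages. Large against small stage had 0 of 10 members called in microglia, BMDM and monocytes (0% of genes called in each) and 0 of 9 tested in granulocytes (0.0141%), with 1, 3, 2 and 1 members at an unadjusted p under 0.05, where 2453 of 19754, 955 of 15874, 568 of 14567 and 1252 of 14230 genes were. The lowest unadjusted p was that of H2-Eb1 in monocytes, which was at 785, 583, 815 and 1171 CPM at the small stage and 428, 485, 136, 382 and 584 CPM at the large stage, with overlap (-1.07 ± 0.39, edgeR adjusted p = 1). H2-DMa in BMDM was at 448, 566, 330, 591 and 594 CPM at the small stage and 413, 399, 346, 370 and 241 CPM at the large stage (-0.47 ± 0.20, adjusted p = 0.78). Large-stage BMDM replicate 5 was lowest of its group for Cd74 (1631 CPM) and for dendritic cell markers (454.6 CPM) and highest for microglia markers (5786 CPM).

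Radiotherapy was compared with the mean of both unirradiated stages in each population. No member was called in any of these 16 comparisons or in both comparisons of day 10 with day 3, where the share of genes called was 0.0607%, 0.101%, 0.0354% and 0.00506% in microglia at 5x2 Gy day 3, 1x10 Gy day 3, 5x2 Gy day 5 and 5x2 Gy day 10, 0.0063% in BMDM at 1x10 Gy day 3 and 0% in all others. DESeq2 called 1 member, in granulocytes at 5x2 Gy day 5. The number of members at an unadjusted p under 0.05 was 0 to 5, with 5 in BMDM at 5x2 Gy day 5 (1125 of 15874 genes) and 4 in microglia at 5x2 Gy day 3 (357 of 19754 genes).

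In BMDM the H2-DO genes had the lowest unadjusted p-values. H2-Ob was at 16.8, 33.9, 11 and 48.6 CPM at 5x2 Gy day 5 and at 35, 29.6 and 24 CPM at day 10, against 19.2 to 111 CPM (median 70) without radiotherapy. H2-Oa was at 13.4, 20.6, 13.2 and 50.3 CPM at day 5 and 27.7, 17.8 and 26.5 CPM at day 10, against 27.5 to 87.7 CPM (median 56.1). All of these irradiated libraries lay under the unirradiated median, but none of the groups was free of overlap. The differences were -1.41 ± 0.44 for H2-Ob at day 5 (edgeR adjusted p = 0.53) and -1.28 ± 0.46 for H2-Oa at day 10 (0.78). Summed dendritic cell markers were at 576.7 to 1329 CPM at day 5 and 980.7 to 1482 CPM at day 10, against 454.6 to 3810 CPM without radiotherapy, and their part was not tested.

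In microglia at 5x2 Gy day 3, all 10 members had a positive difference, which for 6 of them turned negative without replicate 4. Cd74 was at 157, 138, 82.5 and 1602 CPM in the 4 libraries and H2-Eb1 at 10.4, 16, 13.7 and 500 CPM. Among the 6, H2-Eb1 went from 1.57 ± 0.75 to -1.74 ± 0.77, Cd74 from 0.99 ± 0.56 to -0.92 ± 0.55 and H2-Aa from 1.83 ± 0.60 to -0.75 ± 0.57 (edgeR adjusted p = 1 with and without it), and H2-Ab1, Ciita and H2-Oa also changed sign, while H2-DMa, H2-DMb1, H2-DMb2 and H2-Ob stayed above 0. That library summed to 551.6 CPM for markers listed for monocyte-derived macrophages, against 61.26 to 78.69 CPM in the other 3. These markers are not particular to macrophages. They summed to 1337 to 2637 CPM in small-stage BMDM, 3947 to 5570 CPM in small-stage monocytes and 2344 to 5395 CPM in small-stage granulocytes. Border macrophage markers summed to 291.3 CPM in that library, against 50.79 to 131.0 CPM in the other 3. The part of other cells in its values was not tested.

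Whether stage or radiotherapy acted differently on BMDM and microglia was tested directly in 5 interactions. No member was called in any of them (0% of genes called in 4 and 0.00516% at 5x2 Gy day 3). The lowest unadjusted p was that of H2-DMa at 5x2 Gy day 5, where the difference between populations was -0.73 ± 0.26 (edgeR adjusted p = 1).

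**Figure D5:**
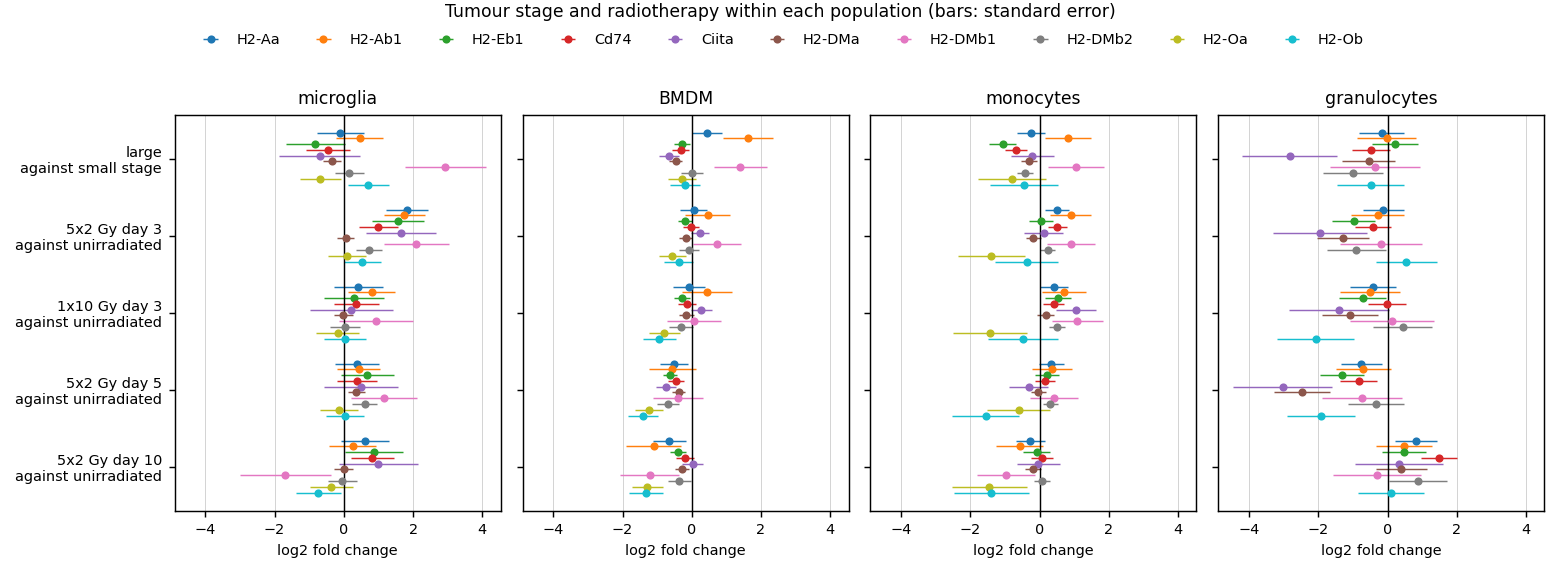
Log2 fold changes (x axes) of the members for large against small stage and for 4 radiotherapy groups against unirradiated cells (rows), in 4 populations (panels). Bars are standard errors and colours mark genes. No difference has an adjusted p under 0.05, and H2-Oa was not tested in granulocytes.

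Among the 24 libraries of tumour-bearing microglia, the surface chains, Cd74 and Ciita spread widely and H2-DMa little. Cd74 ran from 75.2 to 1602 CPM, H2-Eb1 from 7.71 to 500 CPM and Ciita from 0.169 to 57.2 CPM, but H2-DMa from 97.7 to 245 CPM. The 6 libraries with the most Cd74 included 5 of the 6 with the most H2-Eb1, 5 of the 6 with the most Ciita and 2 of the 6 with the most H2-DMa. The 3 libraries with the most Cd74 (5x2 Gy day 3 replicate 4, 5x2 Gy day 5 replicate 3 with 856 CPM, and 5x2 Gy day 10 replicate 3 with 716 CPM) summed to 551.6, 348.2 and 242.1 CPM for markers of monocyte-derived macrophages. In the other 21 libraries that sum ran from 28.16 to 307.0 CPM, and it was 246.2 CPM in a library with 230.8 CPM of Cd74 (5x2 Gy day 5 replicate 4).

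Over the 28 group means on the log2(CPM + 1) scale, a member's Pearson r with the mean of the other members was highest for Ciita (0.948), H2-Ab1 (0.943), H2-DMb2 (0.936) and Cd74 (0.931), lower for H2-DMa (0.792) and H2-Oa (0.711), and lowest for H2-Ob (0.429). The groups share cell populations, so these values are a description. Among the 12679 genes that reached a mean of 10 CPM in at least 1 group, the 10 genes most like the members' mean were Kmo and Clec10a (r = 0.967), Shtn1, Dpp4 and Ncoa7 (0.963), H2-Ea-ps (0.962), Flt3 (0.961), Nostrin (0.957), and Kynu and Net1 (0.955). Flt3, the receptor on which dendritic cells depend, was at 222 ± 114 CPM (SD, n = 10) in unirradiated BMDM, 39.7 ± 31.4 CPM (n = 9) in tumour monocytes and 6.94 ± 3.53 CPM (n = 10) in microglia. Kmo, an enzyme of tryptophan breakdown, was at 158 ± 65.5, 47.7 ± 29.6 and 3.68 ± 3.60 CPM. Of these 10 genes, 2 (Flt3 and Dpp4) are on the list of 11 dendritic cell markers.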

How the data were processed

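Counts per gene were deposited by the authors as whole numbers, with 49585 genes and 108 libraries. Per the submitters' processing notes, the build is GRCm38 and the tools include TopHat2 2.0.14, HTSeq, FastQC and DESeq2 1.18.1, with no role given. The strand setting and annotation release were not given in sources used here, so members that overlap genes of the opposite strand (H2-Eb1, Ciita, H2-DMa and H2-Oa) may hold their reads.

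The raw counts were filtered with filterByExpr (minimum count 10, minimum total 15), scaled by TMM and compared by edgeR 4.0.16 (R 4.3.3), using its quasi-likelihood test with 1 mean per group. Libraries of a population were fitted together, and comparisons across populations used their unirradiated groups. Benjamini-Hochberg adjustment covered every gene tested in a comparison (threshold 0.05), without adjustment over the 36 comparisons. Only the microglia fit was run on simulated counts, for large against small stage, and the outcome is not given here. Coordinates come from GENCODE M21 (49326 IDs matched).

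Alternatives were RLE scaling, no filter, DESeq2 1.42.0, the compared groups alone, a replicate block, either stage as reference and leaving out each library. Added after seeing the data were leaving out doubtful or high-ratio libraries and scaling by library totals. Named genes were all members, up to 4 members of a pathway list by adjusted p, and the 10 most like genes. Members, lists and tests were chosen with earlier results of these data known. The high-ratio libraries were found from the members' own counts.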

Additional observations from a re-analysis of the deposited data

Results flagged for a closer look

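In groups of 4 or 5 libraries, the highest or lowest library stood apart from the rest (its gap to the nearest other library, relative to the group's range, exceeded the 95% critical value of Dixon's test) in 21 of 180 sets of 1 member in 1 group. For independent, normally distributed values about 1 in 20 is flagged by chance. CPM of several members in the same libraries are not such values, so the number of flags is not read as an excess. No cause of these values was tested.

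Replicate 4 of microglia at 5x2 Gy day 3 was high in 6 members, with the next highest library of its group in brackets: Cd74 at 1602 CPM (157), H2-Eb1 at 500 CPM (16), H2-Ab1 at 97.9 CPM (7.98), H2-Aa at 85.1 CPM (4.98), Ciita at 57.2 CPM (2.45) and H2-Oa at 17.3 CPM (2.87). It is a library of high H2-DMb1 ratio.

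Replicate 4 of 5x2 Gy day 5 was high in 3 populations, each time in a library of high H2-DMb1 ratio. H2-DMb1 was at 23.4 CPM in microglia (next highest 2.96), 70.6 CPM in BMDM (13.9) and 64.5 CPM in monocytes (12.1). H2-Ab1 was at 217 CPM in BMDM (58.3) and 207 CPM in monocytes (51.2), and H2-Ob at 60.5 CPM in microglia (16.6).

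Among blood monocytes, replicate 3 had H2-Ab1 at 64.8 CPM (21.4) and H2-DMb1 at 11.5 CPM (5.08), and replicate 4 had H2-DMa at 551 CPM (101). Ciita was high in tumour-free microglia replicate 3 (45.8 CPM against 2.03), granulocyte small-stage replicate 1 (34 CPM against 1.74), both of doubtful quality, and microglia large-stage replicate 3 (15.4 CPM against 2.25). In large-stage monocytes, Cd74 was low in replicate 3 (900 CPM, the next lowest 2407) and H2-Oa high in replicate 5 (9.04 CPM against 2.5). H2-Oa was at 1.18 CPM in granulocyte 5x2 Gy day 3 replicate 3 (0.163), a doubtful library.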

How the results depend on the processing

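All 10 members stayed called in BMDM against microglia in every alternative run. In microglia at the small stage against tumour-free, where 1 member was called, the count was 2 with RLE scaling, 2 without the filter, 2 with the compared groups alone, 3 with DESeq2, 0 without doubtful libraries, 0 without high-ratio libraries and 0 to 3 without single libraries (3 without tumour-free replicate 4; 0 without tumour-free replicate 3 or any 1 small-stage library). H2-DMb1, called there, changed sign to 0.63 without high-ratio libraries, which leaves 1 tumour-free library and selects on H2-DMb1 itself. Values that were not called changed sign more often, up to 6 members at once in microglia at 5x2 Gy day 3 without replicate 4. The replicate block gave 0 calls there, 3 of which 2 were kept in tumour against blood monocytes, and 8 of which 7 were kept in BMDM against blood monocytes. Equal replicate numbers were not treated as pairs, because not every pair's deviations correlated over 0.1, a rule that true pairs may fail. The replicate block joins equal numbers of all groups, so it does not model pairs within a stage or radiotherapy group. The p-values between tumour populations and of the interactions therefore ignore any such pairing. Over all 139 pairs of populations in the same group of stage or radiotherapy the median correlation was 0.257, with 106 over 0.1. Over the 10 of unirradiated BMDM and microglia it was 0.082, with 5 over 0.1. High-ratio libraries also had equal numbers in microglia, BMDM and monocytes at 5x2 Gy day 3, 1x10 Gy day 3 and 5x2 Gy day 5. At the large stage microglia differed from the others in these numbers. A shared source of same-numbered libraries may therefore exist. At the large stage against tumour-free (0 called), RLE, no filter, DESeq2 and leaving out high-ratio libraries each gave 1, and single libraries 0 to 1. In tumour-free microglia titled 5x2, DESeq2 called 1 at day 3 and 4 at day 5, where single libraries gave 0 to 1. No filter gave 1 call in monocytes of large against small stage, RLE 1 in granulocytes of large against small stage, and DESeq2 1 in granulocytes at 5x2 Gy day 5, all against 0. Tumour against blood monocytes (3 called) had 8 without the filter, 0 without doubtful libraries, 0 without high-ratio libraries and 2 to 6 without single libraries (6 without blood replicate 4, 5 without large-stage monocyte replicate 3). BMDM against blood monocytes (8 called) had 2 without doubtful and 4 without high-ratio libraries. Of the 10 most like genes, 6 were shared with Spearman's rho and 9 with a pseudocount of 0.1. Shares of all genes called are not given for the alternatives, so their counts describe the members alone. The cause of these changes was not tested.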
